A study of Mus musculus with 88 samples.

Results

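The hemispheres of the same mouse were compared 24 h after a controlled cortical impact, in which a piston is driven into the exposed cortex of one side. All mice labelled as injured and collected at 24 h were used, which is 15 of the 44 mice of the series and 30 of its 88 RNA sequencing libraries. Each mouse gave 1 ipsilateral library, from the injured cortex, and 1 contralateral library, from the matching cortex of the other hemisphere. Sex, batch, anaesthesia, analgesic and time of collection are shared by both libraries of a mouse, so the comparison within a mouse is free of them. The craniotomy was made on the impact side, and no group had a craniotomy without an impact, so the effects of opening the skull and of the impact cannot be told apart.

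The mice were C57BL/6, bought at 7 weeks and operated at 8 to 9 weeks of age under isoflurane. A 3 mm craniotomy was made over the right somatosensory cortex, and a 2 mm tip struck at 6.0 m/s for 100 ms to a depth of 1 mm. Injured mice received buprenorphine at 0.05 mg/kg and saline. Mice were perfused, and a 4 mm punch was taken around the injury and at the mirror position, so an ipsilateral punch is wider than the impactor tip and holds tissue around the contusion as well. There were 7 females and 8 males, 7 mice in batch A and 8 in batch B, as the labels name the batches. For reference, 13 naive mice of the same strain (7 females and 6 males, 9 in batch A and 4 in batch B) gave 1 punch from each side; their right punch carries the ipsilateral label although nothing was done to it.

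A contusion tears vessels, kills cells and spills blood into the cortex within minutes. Microglia, the resident immune cells, and astrocytes, the supporting glia, then change state, endothelial cells display adhesion molecules, and neutrophils and monocytes enter from the blood. Injured cells also switch on transcription factors of the AP-1 family, built from Fos, Jun and Atf3 proteins, while cytokines act through NF-kB and STAT factors and interferons through elements known as ISRE.

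To show such elements in genes with large differences between sides, the 250 bases before the start of 4 of them, and of 1 gene that was lower on the injured side, are shown from RefSeq annotation on GRCm38.p6, 5' to 3' on the gene's strand. Capitals mark matches to the AP-1 letters TGACTCA, searched on both strands, and to the ISRE element, whose core TTTC is repeated after a gap of any pair of bases, also on both strands. Il1rn, the secreted blocker of the interleukin-1 receptor, lies at chr2:24336610-24336859 (plus strand), Slfn4, a myeloid gene of the Schlafen family, at chr11:83174936-83175185 (plus strand), Cxcl10, a chemokine for lymphocytes and monocytes, at chr5:92348890-92349139 (minus strand), Rsad2, the antiviral protein viperin, at chr12:26456453-26456702 (minus strand), and Ptgds, the prostaglandin D synthase of the leptomeninges, at chr2:25469750-25469999 (minus strand).
Il1rn: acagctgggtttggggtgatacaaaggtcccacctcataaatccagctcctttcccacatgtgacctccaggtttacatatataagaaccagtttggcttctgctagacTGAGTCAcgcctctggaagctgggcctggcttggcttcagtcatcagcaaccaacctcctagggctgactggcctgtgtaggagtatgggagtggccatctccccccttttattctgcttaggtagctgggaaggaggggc
Slfn4: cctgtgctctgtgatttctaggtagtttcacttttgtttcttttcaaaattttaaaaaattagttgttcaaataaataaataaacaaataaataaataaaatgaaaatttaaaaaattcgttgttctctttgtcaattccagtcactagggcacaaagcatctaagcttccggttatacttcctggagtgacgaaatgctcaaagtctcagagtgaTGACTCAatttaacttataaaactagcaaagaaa
Cxcl10: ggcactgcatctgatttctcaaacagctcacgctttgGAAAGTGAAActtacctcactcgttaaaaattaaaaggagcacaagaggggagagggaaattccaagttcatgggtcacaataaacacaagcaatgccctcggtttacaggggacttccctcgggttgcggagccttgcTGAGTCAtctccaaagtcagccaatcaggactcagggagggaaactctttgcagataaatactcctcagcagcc
Rsad2: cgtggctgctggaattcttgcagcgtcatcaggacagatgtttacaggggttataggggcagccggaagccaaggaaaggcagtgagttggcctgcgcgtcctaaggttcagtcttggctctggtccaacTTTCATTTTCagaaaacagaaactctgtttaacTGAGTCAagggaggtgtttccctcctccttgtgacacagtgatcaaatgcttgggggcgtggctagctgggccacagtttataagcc
Ptgds: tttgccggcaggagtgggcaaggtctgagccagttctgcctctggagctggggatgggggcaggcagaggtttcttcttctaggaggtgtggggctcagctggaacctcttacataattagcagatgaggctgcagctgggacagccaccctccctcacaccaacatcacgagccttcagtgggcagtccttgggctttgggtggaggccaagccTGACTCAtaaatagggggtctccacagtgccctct

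The AP-1 letters began 141 bases before the start in Il1rn, 34 in Slfn4, 74 in Cxcl10, 87 in Rsad2 and 35 in Ptgds, and the ISRE letters 213 bases before it in Cxcl10 and 120 in Rsad2. RefSeq windows of 300 bases, 250 before to 50 after the start, were at hand for 12018 of 16990 tested symbols, with 15388 windows in all. Of 364 windows of genes more than 4-fold higher ipsilaterally, 13.19% held the AP-1 letters, against 5.41% of 296 windows of genes more than 2-fold lower and 3.87% of all windows. The ISRE letters were in 9.07%, 3.04% and 2.97% of the same windows, and in 6 of 11 windows of the interferon list. The letters of the NF-kB element (GGGA, any base, then TTTCC) were in 1.65%, 0.34% and 0.47%, the STAT letters TTCCNGGAA in 1.65%, 1.01% and 1.2%, the CRE letters TGACGTCA in 1.65%, 1.69% and 2.83%, and the hypoxia letters ACGTG in 20.6%, 19.93% and 24.18%, both strands counted in each case. A match describes these letters in these windows and is not a measured binding site, and Ptgds, a lower gene, carries the same letters.

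The 30 libraries held 14.84 to 26.36 M counts, with 3.36 to 5.45% in mitochondrially encoded genes. The values below are CPM, counts scaled to a common library size with TMM factors, and differences are ipsilateral minus contralateral on the log2 scale, from edgeR's quasi-likelihood test with the mouse as a block and Benjamini-Hochberg adjustment. Some libraries stood apart from their group. In the contralateral library of the female QF1, 601 of 14068 genes lay more than 2-fold from the median of the other contralateral libraries, against 50 to 148 in those others: Gfap, the astrocyte filament, was at 831 CPM against 79.6 to 264, and Cd44, an adhesion receptor, at 55.4 against 1.82 to 4.17, while Hmox1 was at 6.53 within the others' 2.95 to 6.88. The ipsilateral library of the male DM2 held skeletal muscle transcripts at 1067 CPM in sum, against at most 26.6 in the other ipsilateral and 31.2 in the contralateral libraries. Fibcd1, a gene of hippocampal CA1 neurons, was at 15.4, 44.1, 72.6 and 55.3 CPM in the ipsilateral libraries of DF2, DF3, QF2 and RM2, and no other ipsilateral library was above 4.62 CPM. Some of the counts that rest on these libraries are given with and without them.

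At 24 h the injured cortex differed from the other side of the same brain in most genes measured. Of 17007 genes tested, 10171 (59.8%) were called at an adjusted p under 0.05, 4787 higher (28.1%) and 5384 lower (31.7%) ipsilaterally. Most calls were small: 2875 of the higher and 4170 of the lower differed by less than 1.5-fold. Large differences were mostly upward, with 1092 genes (6.42%) more than 2-fold higher and 360 (2.12%) more than 2-fold lower, 387 (2.28%) and 43 (0.253%) past 4-fold, and 168 and 8 past 8-fold. Of all genes tested, 2241 (13.2%) were higher and 1556 (9.15%) lower in all 15 mice, and in 942 (5.54%) every ipsilateral library lay above every contralateral one, in 441 (2.59%) below. The median difference over all genes was -0.02. Without QF1 and DM2, 9960 genes were called, and without DF2, DF3, QF2 and RM2, 9022. In punches of bulk tissue, fewer cells of a type and less RNA per cell cannot be told apart, here and in every group below.

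**Figure D1:**
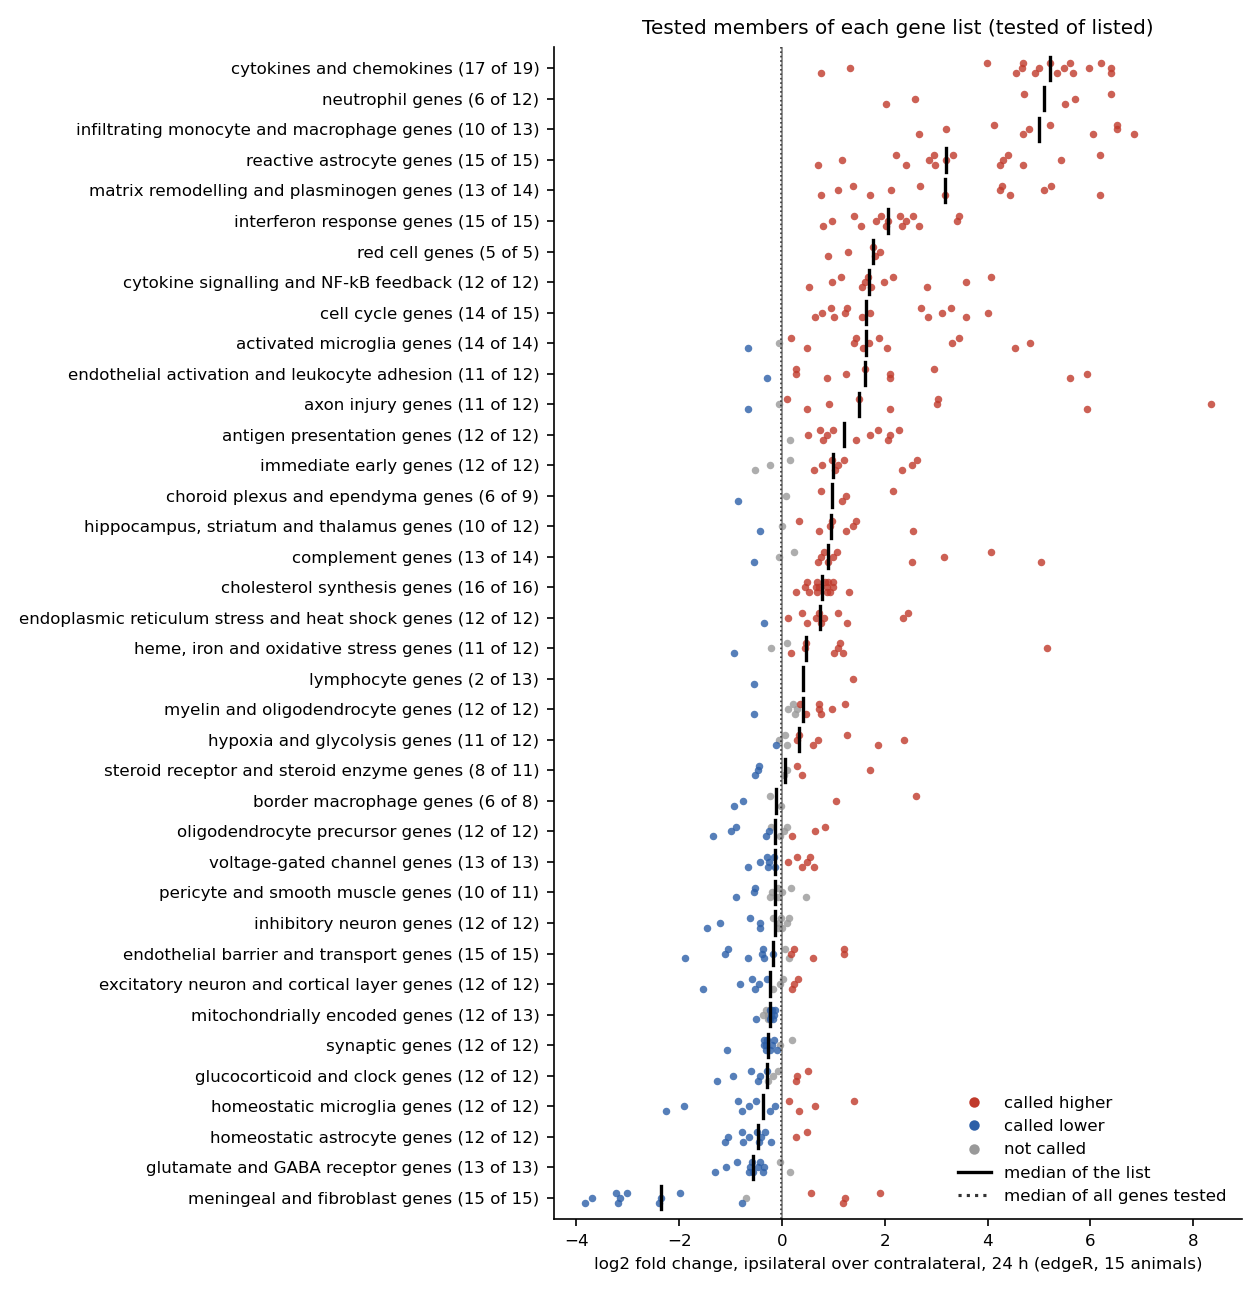
Log2 difference between sides (x axis) of each tested gene of 38 gene lists (y axis), coloured by call, with a black bar at the list's median and a dotted line at the median of all genes (-0.02). The cytokine, monocyte and neutrophil lists lie farthest to the right and the meningeal list farthest to the left. Many genes of these lists passed the count minimum on 1 side alone.

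Hmox1, heme oxygenase, which breaks down heme released from blood, had the smallest p of the heme and oxidative stress list. It was at 2.95, 4.93 and 6.88 CPM (lowest, median and highest) contralaterally and at 131, 183 and 286 CPM ipsilaterally. The sides were far apart in every mouse, with a difference of 5.16 ± 0.08 (SE, n = 15 pairs; adjusted p = 5.91e-21, edgeR). Of the 11 tested genes of the list, 8 were higher and 1 lower, with a median of 0.46. Txnrd1, thioredoxin reductase, was higher by 1.02 ± 0.04 and Srxn1, sulfiredoxin, by 1.10 ± 0.05, and the iron storage chains Fth1 and Ftl1 by 0.46 and 1.19. Slc40a1, the iron exporter ferroportin, was lower at -0.94, and Nqo1 and Slc7a11 did not pass the test (-0.21 and 0.09). Hemoglobin transcripts, which mark red cell precursors and residual blood, moved the same way: both red cell genes measured well on both sides (reaching the count minimum in each) were higher (median 1.79), 3 others reached the count minimum through the ipsilateral side alone, and their summed level was 4.87 to 50.8 CPM contralaterally and 29.4 to 573 ipsilaterally, the highest being DM2 and the next 319. Hbb-bs, a beta globin, differed by 1.81 ± 0.24, and by 1.57 without QF1 and DM2. What part blood left in the tissue plays in the other values was not tested.

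The AP-1 genes Atf3 and Jun were higher ipsilaterally in every mouse. Atf3, a stress factor that joins Jun at AP-1 sites, went from a median of 0.411 CPM (0.125 to 1.28) to 28.6 CPM (16.8 to 45.7), a difference of 5.93 ± 0.13. Jun went from 52.2 CPM (43.5 to 69.2) to 151 CPM (124 to 197), which is 1.49 ± 0.05 with an SD of only 0.19 over the 15 mice. For Jun, no contralateral library was at the level of any ipsilateral one. Atf3 reached the count minimum through the ipsilateral side alone, so it had to differ and its values are a description. Of the 11 tested genes of the axon injury list, 9 were measured well on both sides, and 7 of these were higher and 1 lower (median 0.92). The other 2 reached the count minimum through the ipsilateral side alone. The higher ones of the list included Gadd45a, a growth arrest gene (2.11), Tubb6, a tubulin of growing cells (3.01 ± 0.09), and Sox11, a factor of immature neurons (0.92). Gap43, a growth cone protein, was not called (-0.06), and Flrt3, an adhesion protein, was lower (-0.65). Sprr1a, a small proline-rich protein of regenerating neurons, had 1396 counts over the 15 ipsilateral and 2 over the 15 contralateral libraries, a ratio of 655 with a 95% counting interval of 181 to 5417. It too reached the count minimum through the ipsilateral side alone and had to differ.

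Genes of cytokine signalling and NF-kB feedback were higher as a block. Socs3, the feedback inhibitor of STAT3, was at 3.04, 4.82 and 6.5 CPM contralaterally and at 41.8, 56.3 and 78.7 CPM ipsilaterally. That is a difference of 3.59 ± 0.08 (adjusted p = 4.07e-18, edgeR's quasi-likelihood test with Benjamini-Hochberg adjustment), with no overlap. Stat3 itself was higher by 1.98 ± 0.08, Zfp36, which destabilises cytokine transcripts, by 2.83 ± 0.10, and Bcl3, an NF-kB partner, by 4.07. All 12 genes of the cytokine signalling and NF-kB feedback list were called higher (median 1.70), and 11 of them had every ipsilateral library above every contralateral one. The 11 genes that were measured well on both sides were all called higher, so a low contralateral level is not what placed them among the genes tested.

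**Figure D2:**
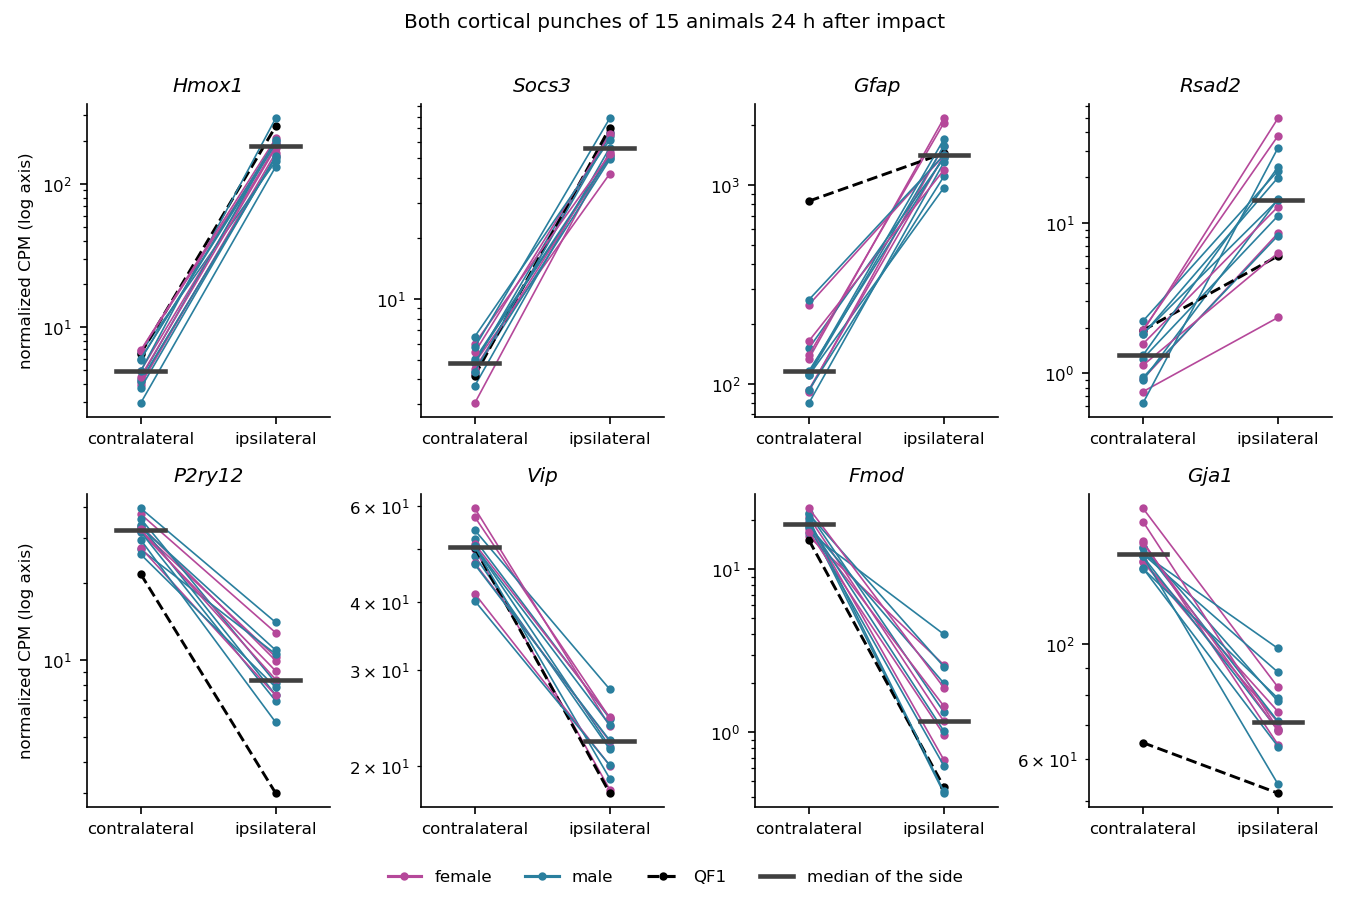
Normalized CPM (log axis) in the contralateral and ipsilateral library of each mouse for Hmox1, Socs3, Gfap, Rsad2, P2ry12, Vip, Fmod and Gja1, 1 line a mouse (females pink, males blue, QF1 black and dashed) and bars at the median of each side. The lines of Hmox1 and Vip run nearly parallel, whereas QF1 starts high in Gfap, at 831 CPM, and low in Gja1.

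Transcripts of cytokines and chemokines were low contralaterally. Their summed level was 20.8 to 31.2 CPM contralaterally, 130 to 366 CPM ipsilaterally and 18.7 to 24.8 CPM in the right cortex of naive mice. Of 19 genes 17 were tested, and 15 of them reached the count minimum through the ipsilateral side alone, so they had to differ and their values are a description. Il1rn had 0, 0.125 and 0.952 CPM contralaterally and 4.18, 23.7 and 55.7 CPM ipsilaterally, a difference of 6.41 ± 0.21. The neutrophil attractants Cxcl1 and Cxcl2 (5.98 and 6.40), the monocyte attractant Ccl2 (5.66), Tnf (5.49), Il1b (4.56) and Il6 (4.93) were each higher in these paired libraries. Il1a differed far less (0.76), and so did Csf1, the growth factor of microglia (1.32). Cxcl10 went from 0.244 CPM (0 to 0.489) to 12.7 CPM (5.2 to 24.9), a difference of 5.61 ± 0.22.

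Genes of activated endothelium and of blood leukocytes were higher on the injured side as well. On the vessel side, 9 genes of endothelial activation were measured well on both sides, of which 8 were higher and 1 lower (median 1.24). A further 2 genes reached the count minimum through the ipsilateral side alone, so they had to differ. Among all tested genes of the list, Icam1, a ligand for leukocyte integrins, differed by 2.11 ± 0.10. Sele and Selp, the selectins that slow leukocytes, differed by 5.60 and 5.94. Vcam1, another leukocyte ligand, was lower (-0.29), and Plvap, a protein of leaky vessels, was higher by only 0.27. Of 12 neutrophil genes 6 were tested, 4 of which reached the count minimum through the ipsilateral side alone and had to differ, and the other two were both higher (median 2.31). S100a8, an abundant granulocyte protein, went from 0.258 CPM (0 to 2.07) to 11.1 CPM (3.6 to 144), and Cxcr2, the receptor of Cxcl1, from 0.103 to 7.52 CPM. The level summed over all 12 neutrophil genes, tested or not, was 794 CPM in DM2 and at most 195 in the other ipsilateral libraries. Granule genes of immature neutrophils such as Camp, Ngp and Ltf were not tested.

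Of 13 monocyte and macrophage genes 10 were tested, and all 10 reached the count minimum through the ipsilateral side alone, so they had to differ and their values are a description. The level summed over all 13 genes was 1.81 to 7.11 CPM contralaterally and 45.9 to 205 CPM ipsilaterally. Arg1, an arginine-degrading enzyme of recruited macrophages, was at 0.0625, 0.229 and 1.29 CPM contralaterally and at 12.4, 25.4 and 85.8 CPM ipsilaterally. It differed by 6.52 ± 0.18 with no overlap. Ccr2, the receptor of Ccl2, was higher by 3.20. Lymphocyte genes gave a different picture, with 2 of 13 members tested: Cd4, which macrophages also carry, was higher (1.39 ± 0.25), and Trbc2, a T cell receptor chain, was lower (-0.55 ± 0.17) but lost its call in females, in batch B and without DF2, DF3, QF2 and RM2. The remaining lymphocyte genes, Cd3e, Cd8a and Gzmb among them, were below the count minimum in both hemispheres. Of 6 border macrophage genes, 2 were higher and 2 lower, shares near the 28.1% and 31.7% of all genes. Among the 3 measured well on both sides, 1 was higher and 1 lower. F13a1 was at 1.05 ± 0.19 and Cd163, a hemoglobin scavenger receptor, at -0.93 ± 0.16, which was not called in batch A alone.

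Homeostatic microglial genes went both ways, most of them lower. P2ry12, the purine receptor that guides resting microglial processes, was at 21.8, 32.3 and 39.4 CPM contralaterally and at 3.01, 8.39 and 14.1 CPM ipsilaterally. All ipsilateral libraries lay below all contralateral ones, at -1.91 ± 0.09. Siglech, a lectin of resting microglia, followed at -2.26 ± 0.18, and Tmem119 and Selplg were at -0.77 and -0.85. In all, 8 of 12 homeostatic genes were lower and 4 higher (median -0.38), beside 31.7% and 28.1% of all genes. Cx3cr1 (0.33) and Fcrls, a scavenger-like receptor (1.41 ± 0.08), were among the higher ones. The sum over the list was 371 to 493 CPM contralaterally and 357 to 496 ipsilaterally, nearly the same range.

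Of 14 genes of activated microglia and macrophages 10 were measured well on both sides, and 8 of these were higher and 1 lower (median 1.42). Lgals3, a galectin, went from 0.961 CPM (0.244 to 2.02) to 22.4 CPM (10.3 to 37.4), Spp1, osteopontin, from 9.84 CPM (6.67 to 25.7) to 100 CPM (66.4 to 288), and Cd63, a lysosomal membrane protein, from 32.6 to 106 CPM. Apoe, the lipid carrier that astrocytes also make, was lower (-0.66), Trem2, a lipid receptor, was only 0.17 higher, and Axl was not called (-0.06). Complement followed in part, with 8 of 10 genes measured well on both sides higher and 0 lower (median 0.86). Of the other tested genes, 2 reached the count minimum through the ipsilateral side alone and 1 through the contralateral side alone. Over all tested genes the receptors C3ar1 and C5ar1 (3.16 ± 0.10 and 4.07 ± 0.14) and C3 (5.03 ± 0.21) led, and the C1q chains stood at 0.70 to 0.90. C2 was lower (-0.55) but was not among the genes measured well on both sides.

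Interferon-stimulated genes were called higher for 15 of 15 members (median 2.07), and for all 11 that were measured well on both sides, with a wide spread over mice. Rsad2 was at 0.63, 1.31 and 2.22 CPM contralaterally and at 2.34, 14.2 and 49.5 CPM ipsilaterally, a difference of 3.45 ± 0.22 with an SD of 1.05 over mice. Every mouse went up, but by very different amounts, and the male QM2, at 5.40, stood above the 2.88 to 4.04 of the other males. Irf7, the factor that amplifies the response, differed by 2.67 ± 0.19, and by 0.56 in QF1 against 2.05 to 3.15 in the other females. Of 10 antigen presentation genes measured well on both sides 9 were higher (median 0.93), from B2m at 0.50 to H2-Ab1, a class II chain, at 2.27, and Ciita, the class II regulator, was not called (0.16).

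Astrocytes showed gains of reactive and losses of homeostatic transcripts. Gfap was at 79.6, 116 and 831 CPM contralaterally and at 971, 1412 and 2173 CPM ipsilaterally. The sides did not overlap, QF1 included, and the difference was 3.32 ± 0.21, or 3.49 without QF1. All 15 genes of the reactive list were higher (median 3.18). The 12 measured well on both sides were all higher (median 2.97). The other 3 reached the count minimum through the ipsilateral side alone, so they had to differ. Tm4sf1, a membrane protein of the tetraspanin type, was higher by 3.18 ± 0.08, Lcn2, a secreted iron-binding lipocalin, by 5.43 ± 0.17 and Ptx3, a pentraxin, by 6.18 ± 0.22. Serpina3n, a protease inhibitor, was higher by 4.30, Vim by 2.41 and Cp, ceruloplasmin, by 0.69. Of the 12 homeostatic genes, 10 were lower and 2 higher (median -0.47). The gap junction proteins Gjb6 and Gja1 were at -1.12 ± 0.06 and -1.05 ± 0.07, the glutamate transporters Slc1a2 and Slc1a3 at -0.64 ± 0.04 and -0.41, and glutamine synthetase Glul at -0.79. The water channel Aqp4 (0.28) and Aldh1l1 (0.48) were higher. Gja1 overlapped between sides through the contralateral library of QF1 at 64.6 CPM, and QF1's own difference in Gja1 was -0.32 against -1.32 to -0.96 in the other females.

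Some genes of excitatory neurons were lower on the injured side and some higher. Calb1, calbindin of upper-layer neurons, was at 115, 144 and 171 CPM contralaterally and at 25, 51.9 and 71.8 CPM ipsilaterally, at -1.54 ± 0.08 without overlap. Rorb of layer 4 was at -0.81 ± 0.05 and Camk2a at -0.45 ± 0.04, whereas Slc17a7, the vesicular glutamate transporter, was higher (0.23), as were the deep-layer factors Bcl11b (0.20) and Foxp2 (0.32). Over the 12 excitatory genes 3 were higher and 6 lower (median -0.24), beside 28.1% and 31.7% of all genes. Without DF2, DF3, QF2 and RM2, whose ipsilateral punches held Fibcd1, 2 were higher and 6 lower.

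Interneuron markers diverged. Vip, the peptide of an upper-layer interneuron class, was at 40.1, 50.5 and 59.4 CPM contralaterally and at 17.8, 22.2 and 27.6 CPM ipsilaterally, -1.21 ± 0.05 with an SD of 0.17 over mice. Lamp5, which marks neurogliaform cells and some excitatory neurons, was at -1.46 ± 0.07. Pvalb (0.00), Sst (-0.01), Gad1 (0.14), Gad2 (-0.05) and Npy (0.10) were not called. Of 12 inhibitory genes 5 were lower, a share not far from the 31.7% of all genes, and 0 higher, beside 28.1% (median -0.13). Without QF1 and DM2, 5 were lower and 1 higher. Of 12 synaptic genes 10 were lower and 0 higher (median -0.26), beside 31.7% and 28.1% of all genes. The SNARE protein Stx1a was at -1.08 ± 0.08 and Snap25 at -0.15. Stx1a was at 341 CPM (149 to 427) contralaterally and 162 CPM (109 to 230) ipsilaterally, and QF1 differed by only -0.06 against -1.44 to -0.89 in the other females.

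Of 13 glutamate and GABA receptor genes 11 were lower and 0 higher (median -0.56), beside 31.7% and 28.1% of all genes. In 6 of them every ipsilateral library lay below every contralateral one, beside 2.59% of all genes. Gabrd, the extrasynaptic GABA subunit, was at -1.30 ± 0.07, Grm2, a presynaptic glutamate receptor, at -1.08 ± 0.05, and Gria3, an AMPA subunit, at -0.87 ± 0.04. Grin1, the shared NMDA subunit, and Gria1 were not called (-0.04 and 0.15). Voltage-gated channels went both ways, 6 of 13 higher and 7 lower, beside 28.1% and 31.7% of all genes. The sodium channels Scn1a and Scn2a were at -0.65 ± 0.05 and -0.43 ± 0.04. The sodium-activated potassium channel Kcnt1 was higher at 0.63 ± 0.05, as was Kcna1 (0.55).

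Activity-dependent genes were higher ipsilaterally than contralaterally, again with a wide spread over mice. Nptx2, a secreted pentraxin of active synapses, was at 38.2, 52.3 and 77.1 CPM contralaterally and at 71.3, 298 and 665 CPM ipsilaterally, 2.53 ± 0.23 with an SD of 0.99. Fos was at 7.62, 15.5 and 39.5 CPM contralaterally and at 24.5, 77.4 and 255 CPM ipsilaterally, 2.34 ± 0.23. Both genes were higher in all 15 mice and both overlapped between sides. Fosb was higher in 13 of 15 mice, and the exceptions DF3 and QM2 stood at -0.65 and -0.38. Of 12 immediate early genes 9 were higher (median 1.00), including Bdnf (1.03) and Arc (0.78), while Egr1 (0.15), Npas4 (-0.24) and Nr4a1 (-0.52) were not called. The contralateral side was itself below naive cortex for this list, with a median of -0.52 over its genes. The median of the summed level was 674 CPM contralaterally, 1519 ipsilaterally, and 1099 and 952 on the left and right of naive mice. The side difference is therefore not a gain over naive cortex of the same size.

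**Figure D3:**
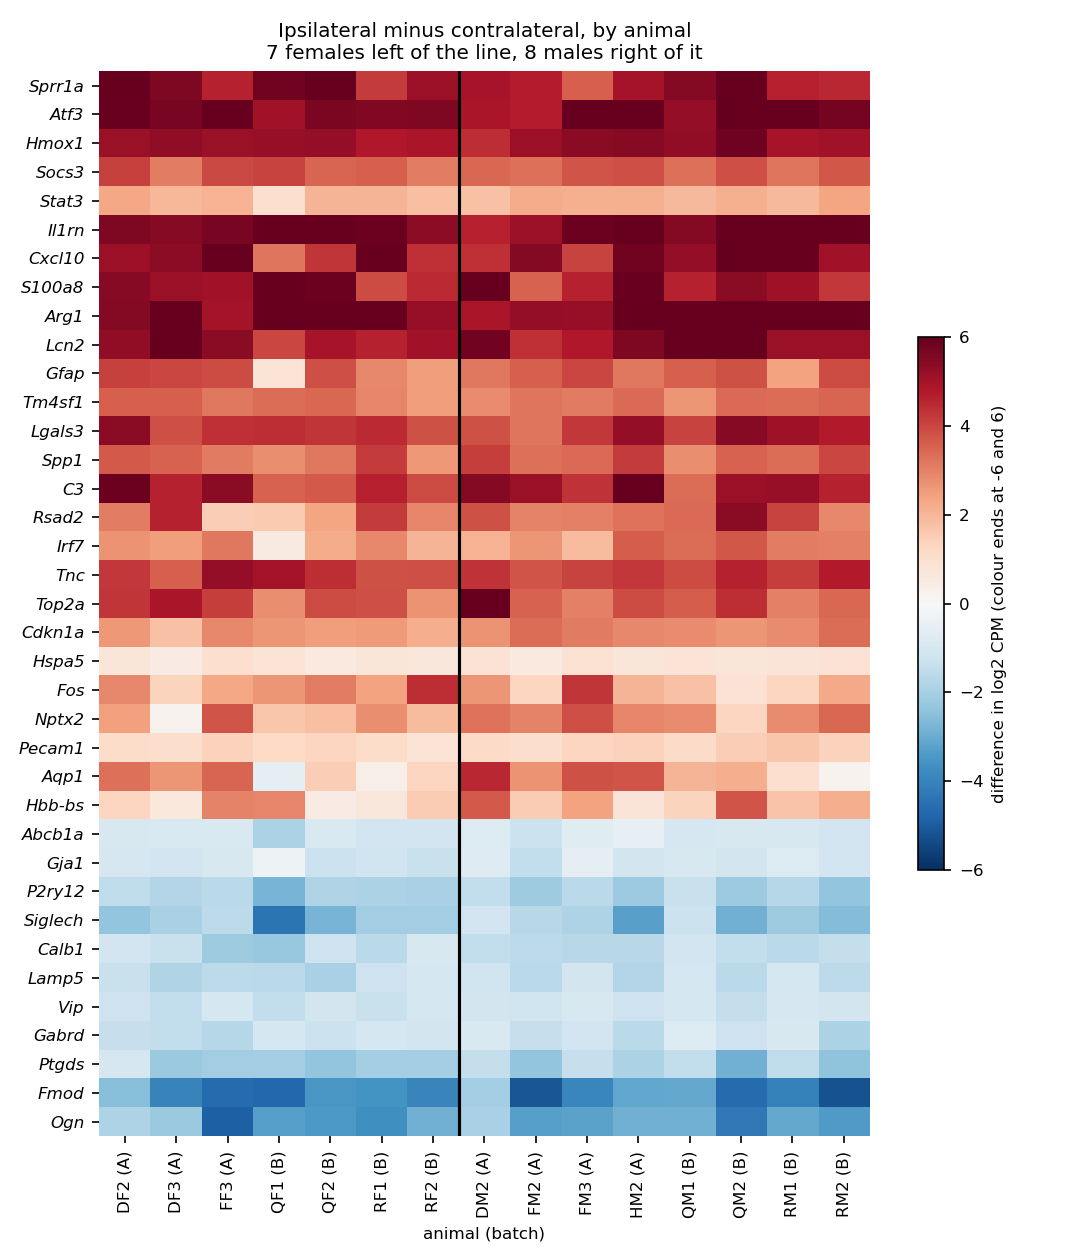
Log2 CPM difference between sides in each of the 15 mice (columns, 7 females left of the line and 8 males right of it) for 37 genes (rows of the map), with colour running from -6 to 6. Most genes keep 1 colour across the map, and single mice depart in places, such as QF1 in Irf7 (0.56) and DM2 in Top2a (6.37).

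Genes of the oligodendrocyte lineage moved in both directions. Gpr17 and Neu4, genes of committed precursors, were at -0.88 ± 0.07 and -1.34 ± 0.11, and Neu4 went from 7.18 CPM (5.77 to 11.2) to 2.95 CPM (1.93 to 4.23) without overlap. Pdgfra and Cspg4, the defining precursor genes, were at -0.31 and -0.25, and the lineage factors Sox10 (0.84 ± 0.09) and Olig2 (0.64) were higher. In all, 5 of the 12 precursor genes were lower and 3 higher (median -0.13), beside 31.7% and 28.1% of all genes. Of 12 myelin genes 7 were higher and 1 lower (median 0.40), beside 28.1% and 31.7% of all genes. Cldn11 (1.23 ± 0.14) and Mag (0.97 ± 0.13) led. In naive mice the right side already stood above the left, with a median of 0.27 over this list. The side difference minus that in naive mice was called higher for 4 of the 12 and lower for 1. Myelin levels varied widely on both sides, with sums of 1085 to 4707 CPM contralaterally and 2762 to 7396 ipsilaterally. Genes of neighbouring regions moved too: of 8 hippocampal, striatal and thalamic genes measured well on both sides 6 were higher and 1 lower (median 0.83). Higher members of the list included the striatal genes Ppp1r1b (1.37 ± 0.11) and Drd2 (1.44). Without DF2, DF3, QF2 and RM2, 10 myelin genes were higher. The part of tissue below the cortex in the myelin values was not tested.

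Vessel and barrier genes did not move as one. The endothelial junction proteins Cdh5 and Pecam1 were both higher, from 18 CPM (14.6 to 21.5) to 42.6 CPM (28.5 to 57.4) and from 22.1 CPM (17.8 to 34.5) to 50.2 CPM (44.6 to 79.9), that is 1.21 ± 0.06 and 1.21 ± 0.05. Transporters of the barrier were lower: Slco1a4 at -1.89, Slco1c1, which carries thyroid hormone, at -1.12, and Abcb1a, the drug efflux pump, at -1.05 ± 0.07. Among tight junction genes Ocln was lower (-0.66 ± 0.11), Cldn5 was slightly higher (0.24 ± 0.05) and Tjp1 was not called (0.06 ± 0.05), though without QF1 it was called at 0.12. Cldn5 was not called in batch A alone, at 0.15. Of 15 genes 5 were higher and 8 lower (median -0.18), beside 28.1% and 31.7% of all genes. Without QF1 and DM2, 7 were higher and 7 lower. Of 10 pericyte and smooth muscle genes 3 were lower, a share near the 31.7% of all genes, and 0 higher: Rgs5 at -0.54 ± 0.07, Vtn at -0.53 ± 0.05 and Myh11 at -0.89 ± 0.10.

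Genes of the meninges, the membranes that cover the cortex, made up 7 of the 10 named genes with the largest falls. Fmod, fibromodulin of meningeal fibroblasts, was at 15.1, 19.1 and 23.7 CPM contralaterally and at 0.423, 1.17 and 3.99 CPM ipsilaterally. No ipsilateral library came near any contralateral one, and the difference was -3.83 ± 0.21. Fmod reached the count minimum through the contralateral side alone, so it had to differ and these values are a description. Myoc, myocilin, was at -3.70 ± 0.29, the organic anion transporters Slc22a6 and Slc22a8 at -3.22 ± 0.24 and -3.19 ± 0.19, the sulfate transporter Slc13a4 at -2.39 ± 0.18 and Ptgds at -1.98 ± 0.11. Of the 15 meningeal and fibroblast genes, 6, Fmod among them, reached the count minimum through the contralateral side alone, so they had to differ. The 9 measured well on both sides divided into 4 lower, 4 higher and 1 not called (median -0.70). The higher ones were the matrix proteoglycans Dcn (1.23) and Lum (1.19) and the retinoid genes Aldh1a2 (0.57) and Crabp2 (1.91), and the collagen Col1a1 was not called (-0.70). The summed level was 534 to 953 CPM contralaterally and 140 to 722 CPM ipsilaterally, where the highest library was DM2 and the next stood at 350. The craniotomy was made on that side, and its part and that of the impact cannot be told apart.

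Of 13 tested matrix and plasminogen genes 8 were measured well on both sides and all 8 were higher (median 1.91); the other 5 reached the count minimum through the ipsilateral side alone. Tnc, the matrix protein tenascin C, went from 3.3 CPM (2.25 to 4.28) to 66.5 CPM (47 to 102), 4.28 ± 0.11. Plaur, the urokinase receptor, differed by 4.23. The stromelysin Mmp3 and the macrophage elastase Mmp12 differed by 5.11 and 6.19. Of 14 tested cell cycle genes 7 were measured well on both sides and all 7 were higher (median 1.27); the other 7 reached the count minimum through the ipsilateral side alone. Top2a, a topoisomerase of dividing cells, went from 0.453 CPM (0.2 to 1.79) to 9.8 CPM (3.6 to 28.2), and Cdkn1a, the p21 brake on the cycle, from 12.6 CPM (9.48 to 18.5) to 86.5 CPM (45.4 to 142).

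All 16 cholesterol synthesis genes were higher (median 0.78), all 16 were measured well on both sides, and 9 had no overlap. Sqle, squalene epoxidase, was at 44.1, 55.8 and 67.7 CPM contralaterally and at 82.1, 101 and 119 CPM ipsilaterally, 0.84 ± 0.06, and Msmo1, a sterol oxidase, differed by 0.88 ± 0.06. Of 12 genes of protein folding stress 11 were higher and 1 lower (median 0.75). Of the 11 measured well on both sides, 10 were higher and 1 lower. The chaperone Hspa5 was at 0.73 ± 0.04, the small heat shock protein Hspb1 at 2.35 ± 0.12, Trib3 at 2.45 and Dnajb1 at -0.36. Of 11 hypoxia and glycolysis genes 7 were higher and 1 lower (median 0.33), with Hk2, hexokinase, at 1.87 ± 0.11 and Adm, adrenomedullin, at 2.37 ± 0.16, but Vegfa at only 0.33 and Ankrd37 and Bnip3 not called. The lower gene, Pdk1 (-0.12), which slows pyruvate use, was not called with RLE scaling or without QF1 and DM2. The letters of the sterol regulatory element, searched on both strands, were in 0 of 12 windows of cholesterol genes and 0.06% of all windows.

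The genes past 2-fold with the least spread over the mice included the following. Pknox2, a homeobox factor of neurons, was at -1.05 ± 0.04 with an SD of 0.16, going from 101 CPM (67.1 to 114) to 49.4 CPM (31.9 to 58). Zyx, zyxin of focal adhesions, was at 1.04 ± 0.04, Bach1, the heme-binding repressor of Hmox1, at 1.25 ± 0.05 and Col4a1, a basement membrane collagen, at 1.60 ± 0.05. Their SD over mice, for which they were picked, was 0.16 to 0.19. Tgm1, a transglutaminase, had an SD of 1.14. Its difference was the largest among called genes with a mean log2 CPM of at least 1 (7.31 ± 0.21). It was at 0, 0.361 and 1.79 CPM contralaterally and at 54.3, 82.7 and 116 CPM ipsilaterally. Tgm1 reached the count minimum through the ipsilateral side alone, so it had to differ and its values, the SD included, are a description.

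The difference between sides was then set against sex and batch. No gene of 18239 (0%) was called for a side difference unlike in females and males, with 790 genes at an unadjusted p under 0.05 (edgeR; median SE of the term 0.14). In each sex alone, 6359 genes were called in the 7 females and 8904 in the 8 males, which is not itself a test of unlike effects. For batch, 1 gene (0.00548%) was called, with 998 at an unadjusted p under 0.05: Aqp1, a water channel of choroid plexus, differed by 3.80 in batch A and 0.98 in batch B (term -2.80 ± 0.41, adjusted p = 0.0206). That call was lost without any of DM2, FM3, HM2, RF1 or RM2. Within batches, 7902 genes were called in batch A and 7476 in batch B for the side difference.

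In naive mice, 0 of 16777 genes (0%) were called between the hemispheres by the same test, with 286 at an unadjusted p under 0.05 (edgeR). Hmox1 was at 4.38 CPM on the left and 3.47 on the right at the median, Gfap at 77.4 and 87.4, P2ry12 at 40.7 and 39.7, Vip at 52.7 and 52.5 and Fmod at 19.9 and 17.8. The side difference after injury minus that in naive mice was called for 6541 of 18214 genes (35.9%; 3421 higher, 18.8%, and 3120 lower, 17.1%). These comparisons share the 24 h libraries with those above. In this difference Hmox1 was at 5.42, Gfap at 3.36, Gja1 at -1.05 and Vip at -1.10. For genes close to 0 in naive mice the term says little: Il1rn, with a median of 0 CPM on both naive sides, had an adjusted p of 0.884 (edgeR's quasi-likelihood test with Benjamini-Hochberg adjustment).

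The contralateral cortex was also compared with the contralateral cortex of naive mice, since it is the reference for every value above and the same libraries enter both. That comparison is between mice, so impact, surgery, anaesthesia and drug cannot be told apart in any of its values. Of 16915 genes 648 (3.83%) were called, 241 higher (1.42%) and 407 lower (2.41%), with sex and batch as covariates. Here the count depended on single mice and on batch: it was 393 without the naive mouse KM3, 1802 without the naive mouse CM1, 220 in batch A and 1955 in batch B. With library size as the only scaling, 553 were higher and 238 lower.

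On the contralateral side, 2 of 12 immediate early genes and 1 of 12 synaptic genes were lower than in naive mice and 0 higher. Over all genes 2.41% were lower and 1.42% higher. These lists were not alone: the homeostatic astrocyte, inhibitory neuron and protein folding stress lists each had 2 of 12 lower and 0 higher. Several other lists had 1 lower. Cbln4, a synaptic organiser, was at 22, 31 and 49.5 CPM in naive and at 11.8, 15.5 and 22.7 CPM in contralateral cortex, -1.02 ± 0.10 (adjusted p = 5.78e-07, edgeR). Egr3, an activity-regulated factor, was at 215, 291 and 432 CPM in naive and at 100, 164 and 197 CPM in contralateral cortex, -0.98 ± 0.10, without overlap. Its ipsilateral median was 302 CPM, near that of naive mice. Fos (-0.88 ± 0.25), Nptx2 (-0.77 ± 0.10) and Cdkn1a (-0.78 ± 0.14) were likewise below naive contralaterally and above contralateral ipsilaterally. Upward, Prg4, lubricin, was at 4.51, 8.16 and 13.3 CPM in naive and at 10.8, 18.6 and 48.5 CPM in contralateral cortex (1.25 ± 0.16), and its sides did not differ by test at 24 h (0.25 ± 0.24, adjusted p = 0.385, edgeR). Lbp, which binds bacterial lipopolysaccharide (1.57 ± 0.22), Bhlhe41, a clock repressor (0.58 ± 0.08), Col6a2, a matrix collagen (0.81 ± 0.11), and Spp1 (0.77 ± 0.16) were higher too. Gfap stood at 0.77 ± 0.24 and was not called (adjusted p = 0.0654, edgeR), Hmox1 at 0.21 ± 0.16.

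**Figure D4:**
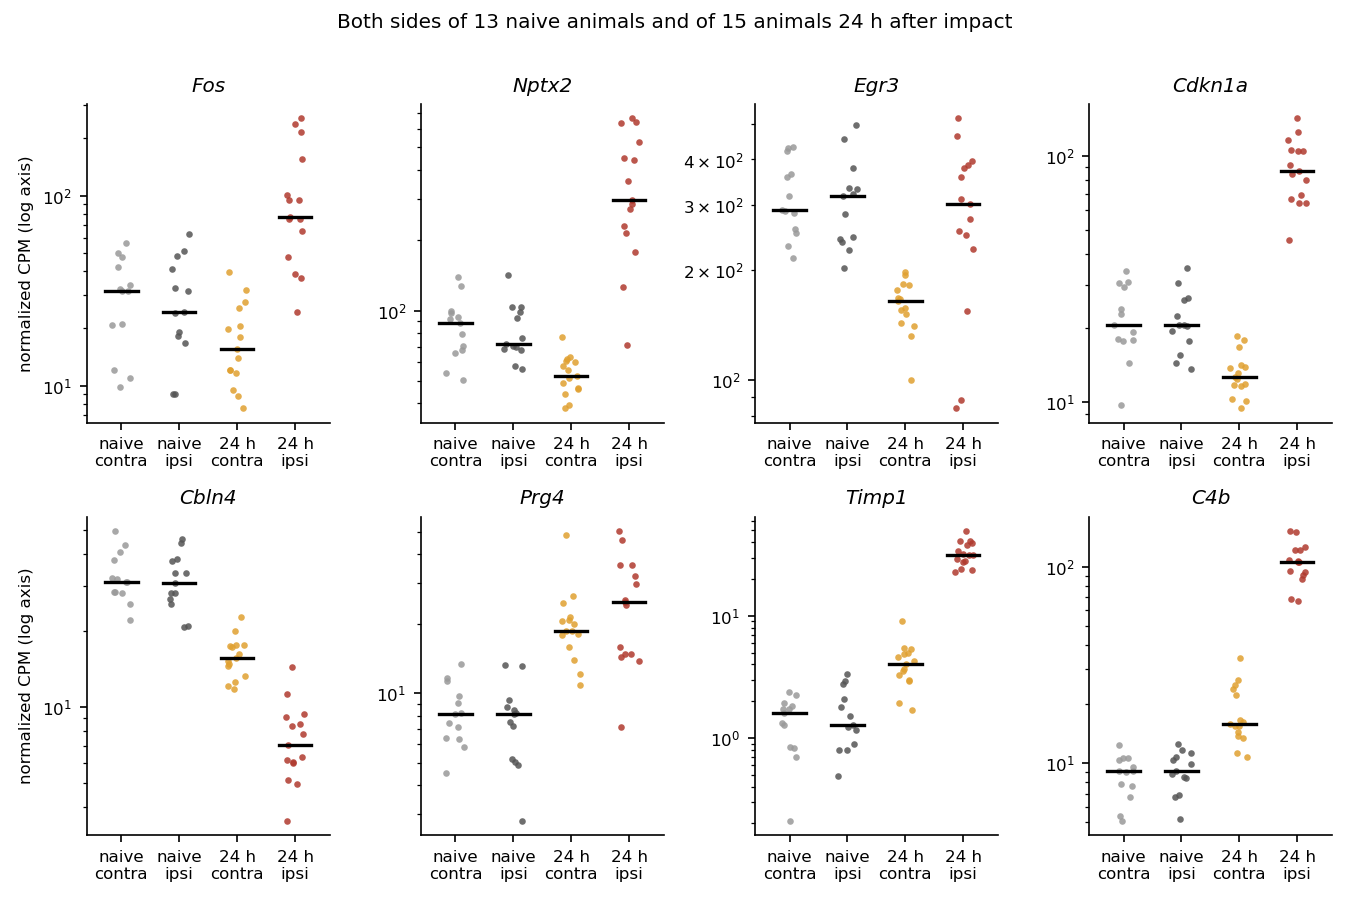
Normalized CPM (log axis) of Fos, Nptx2, Egr3, Cdkn1a, Cbln4, Prg4, Timp1 and C4b in the left and right cortex of 13 naive mice and the contralateral and ipsilateral cortex of 15 mice at 24 h, 1 point a library and bars at the medians. Egr3 is lowest on the contralateral side (median 164 CPM against 291 in naive and 302 ipsilaterally), and the medians of Prg4 on both sides of the injured mice (18.6 and 24.9 CPM) lie above those of naive mice.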

How the data were processed

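RNA counts per gene were compared between the hemispheres of 15 mice at 24 h. The submitters' processing notes name HISAT2 2.0.5 and the mm10 build; how reads were counted, on which annotation and strand, is not given in the sources used here, so values of genes that overlap another gene or have near-identical copies are uncertain. The authors deposited 1 table of raw counts for 54532 genes, of which 54495 were matched to symbols in GENCODE M21, and genes without a symbol held 0.0136% of counts. CPM and log2 differences were derived from these deposited counts. Libraries held 14.84 to 26.36 M counts, and the median SE of a log2 side difference was 0.067.

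The pairing comes from the animal code in the labels, so the mouse entered as a block: edgeR 4.0.16 (limma 3.58.1, R 4.3.3), filterByExpr by side, TMM scaling and the two-sided quasi-likelihood test with Benjamini-Hochberg adjustment over all genes tested, called at an adjusted p under 0.05. Side by sex, side by batch and side by injury (15 and 13 mice) were terms added to the same fit; contralateral cortex of injured and naive mice was compared with sex and batch as covariates. The SE was taken from the log2 difference and the F statistic. Lists for 39 cell types and processes are described by counts and medians; a list gene counted as measured well on both sides where at least 14 libraries of each side reached the equivalent of 10 counts at the median library size. The genes given with values over libraries are the 10 largest rises and the 10 largest falls with the same direction in all 15 mice and a mean log2 CPM of at least 1, from every list the 3 genes of smallest p, Gfap, Cldn5, Ocln, Tjp1, Esr1, Esr2 and Pgr, up to 5 called genes of each smaller comparison and the 10 genes past 2-fold with the smallest SD over mice; other list members are named to illustrate their list and were chosen after their values were seen. A few genes named by it are left out of the text. Members, lists and rule were chosen with earlier results of these data known. Alternatives were DESeq2 1.42.0, limma-voom, other scalings and filters, subsets by sex and batch, and leaving out each mouse; 2 sets of mice were left out after seeing the data. The fits were tested on simulated counts.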

Additional observations from a re-analysis of the deposited data

Results flagged for a closer look

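Values below are log2 CPM differences between sides in 1 mouse that lay far from the other mice of its sex by Dixon's test. Of 292 groups (a named gene in 1 sex) 32 contained such a value; chance gives about 1 in 20 groups.

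The female QF1, whose contralateral library stood apart, accounts for 14 of them. Its difference was shallower than in the other females for the STAT3 gene Stat3 (1.02 against 1.82 to 2.32), Irf7 (0.56 against 2.05 to 3.15), the gap junction gene Gja1 (-0.32 against -1.32 to -0.96), the SNARE gene Stx1a (-0.057 against -1.44 to -0.89), Pfkfb3, a glycolysis regulator (0.088 against 1.08 to 1.70), and the clock gene Ciart (-0.19 against -0.90 to -0.75). It was deeper for the meningeal transporters Slc13a4 (-4.65 against -2.66 to -1.29) and Slc6a20a (-6.42 against -2.14 to -1.44), for P2ry12 (-2.81 against -1.94 to -1.54), the efflux pump Abcb1a (-1.88 against -1.16 to -0.90), smooth muscle Myh11 (-1.79 against -1.01 to -0.52), and upward for the myelin gene Opalin (2.47 against 0.37 to 1.06) and Cldn5 (0.47 against 0.17 to 0.28). Tjp1 was at -0.58 in QF1 and at 0.077 to 0.22 in the other females.

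The male QM2 was high for Tgm1 (9.36 against 6.32 to 7.74) and Rsad2 (5.40 against 2.88 to 4.04) and low for Nptx2 (1.29 against 2.83 to 3.87), Fosb (-0.38 against 2.30 to 4.52), Egr3 (0.027 against 0.90 to 1.66) and the cholesterol gene Sqle (0.32 against 0.75 to 1.03). The female DF3 was low for Fosb (-0.65 against 1.80 to 3.57) and the stress factor Ddit3 (0.25 against 0.67 to 0.95) and near 0 for Gpr17 (-0.020 against -1.22 to -0.75). DF2 was at 5.41 for Lgals3 (others 3.81 to 4.46), 2.58 for Tspo (others 1.21 to 1.66) and -1.02 for Ptgds (others -2.36 to -2.05). DM2, the mouse with muscle transcripts, was at 4.61 for Hba-a2 (others 1.29 to 2.84) and 6.37 for Top2a (others 3.02 to 4.44). FF3 was at -2.16 for the clock gene Dbp (others -1.27 to -0.68) and 0.17 for mt-Nd2 (others -0.50 to -0.24). RF1 was at 2.63 for Adm (others 1.69 to 1.97), and RF2 at -0.34 for Foxj1, a ciliogenesis factor (others 1.08 to 1.92).

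Aqp1 was the gene whose side difference was unlike in the batches, at -2.80 for batch B minus batch A. Its median CPM over all 15 mice went from 0.813 to 4.24.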

How the results depend on the processing

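The paired count of 10171 genes was 10162 without the replicate block (1470 past 2-fold against 1452), 9987 with DESeq2, 10235 with limma-voom, and 9675 to 10700 under other scalings and filters. In subsets it was 9960 without QF1 and DM2, 9022 without DF2, DF3, QF2 and RM2, 6359 in the 7 females, 8904 in the 8 males, 7902 in batch A and 7476 in batch B. Leaving out each mouse gave 9728 to 10303 genes, and 1438 to 1507 past 2-fold. Without a filter on low counts, 2576 genes were past 2-fold and 8 were called between naive sides, in place of 0; without the replicate block, naive sides gave 0. The injury term gave 3032 genes in batch B alone against 6541. For contralateral cortex against naive, 648 genes became 220 in batch A, 1955 in batch B, 426 without covariates and 393 to 1802 on leaving out single mice, and the share of higher calls went from 241 of 648 to 553 of 791 with library size alone. The batch term gave 0 to 2 genes on leaving out single mice, 2 without FF3. The causes were not tested. Library size alone moved the median of all genes from -0.02 to 0.03, and with it 6 rather than 8 homeostatic microglial, 4 rather than 7 channel and 6 rather than 8 mitochondrial genes were called lower. Of 141 called named genes, 134 kept their call under each alternative in which they were tested (Trem1 was not tested in males, in batch A or in either set with several mice left out), and no named gene changed direction past a test; Esr1 (0.39) was the least steady. Depth limits the naive side of some genes: 20 past 2-fold had under 10 counts over the 26 naive libraries.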

Other observations

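Of 12 glucocorticoid and clock genes 6 were lower and 3 higher ipsilaterally (median -0.29), beside 31.7% and 28.1% of all genes. On the contralateral side 2 were lower and 1 higher than in naive mice, beside 2.41% and 1.42% of all genes. Dbp, an output gene of the circadian clock, was at 59.4, 105 and 153 CPM contralaterally and at 20.9, 40.7 and 70.4 CPM ipsilaterally, with naive medians of 52.7 and 48.5 CPM on the left and right. Ciart, a clock repressor, was at 21.5 CPM contralaterally, 11.8 ipsilaterally and 10.1 and 8.87 in naive mice, and Arntl, which drives the clock, at 37.4, 22.8, 46.8 and 52.8 CPM. Side differences were -1.27 ± 0.08, -0.95 ± 0.07 and -0.61 ± 0.07. Against naive mice, the contralateral side was at 0.70 ± 0.13 for Ciart and -0.43 ± 0.06 for Arntl, both called, and at 0.61 ± 0.18 for Dbp, which was not (adjusted p = 0.0541, edgeR). Both sides of a mouse share the hour of collection. In the comparison with naive mice, impact, surgery, anaesthesia and drug cannot be told apart.

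Steroid receptors were lower or uncalled apart from Esr1. Nr3c1, the glucocorticoid receptor, was at -0.46 ± 0.04 and the progesterone receptor Pgr at -0.53 ± 0.06, while Esr1 was at 0.39 ± 0.16 and Tspo, a mitochondrial cholesterol-binding protein of activated glia, at 1.72 ± 0.10. Of 8 tested genes of the list 3 were higher and 3 lower, beside 28.1% and 31.7% of all genes. The call of Esr1 was lost in females, in each batch alone and on leaving out any of 7 mice. Mitochondrially encoded genes were lower for 8 of 12 members and higher for 0 (median -0.24), beside 31.7% and 28.1% of all genes. Without DF2, DF3, QF2 and RM2, 5 were lower. The median of these genes between naive sides was -0.10. For the side difference minus that in naive mice, only 1 of the 12 was called lower and 0 higher. Of 3 choroid plexus and ependyma genes measured well on both sides 1 was higher and 1 lower, near the 28.1% and 31.7% of all genes. Of the 6 tested, 4 were higher and 1 lower, or 2 and 2 without DF2, DF3, QF2 and RM2. Of the whole list, Ttr, transthyretin, was at 1.24 and Enpp2, autotaxin, at -0.85 ± 0.05. Ttr was at 28.9 and 12.9 CPM in the ipsilateral libraries of DF2 and DF3 and at most 8.33 CPM in the other ipsilateral libraries.

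Gapdh, often used as a constant gene, varied widely: it was at 10.5 to 84.2 CPM in 27 of the 30 libraries and at 144 in the contralateral library of RM2, 137 in the ipsilateral library of QF1 and 102 in the ipsilateral library of RF1. It has many processed copies in the mouse genome, and how the authors' counting treated them is not given.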
